A study of Mus musculus with 18 samples.

Results

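The genes described here are the cytosolic ribosomal protein genes and their annotated copies in cultured hippocampal cells from Fibcd1 WT and KO mice. They were chosen by name alone, as symbols that begin with Rpl or Rps followed by a number, an a or one of the stalk names p0 to p2, with the S6 kinases left out. The rule found 66 of the 12012 genes in the table. Of these, 63 are annotated as protein coding and 3 as pseudogenes (Rps3a3, Rpl14-ps1 and Rps4l). One of the protein-coding rows, Rps19bp1, encodes a protein that binds RPS19 and is not part of the ribosome, which leaves 62 ribosomal protein genes.

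Poly-A RNA was sequenced from cultures of E18.5 mouse hippocampus labelled as neurons. FIBCD1 is a transmembrane receptor that binds glycosaminoglycans, and the KO mice carry the Fibcd1tm1Lex allele. Both groups analysed here were plated on a coating of chondroitin sulphate proteoglycans (CSPG), 4 WT CSPG and 4 KO CSPG libraries with the replicate letters A to D. So the comparison is of genotypes that both grew on CSPG, and it asks which ribosomal protein mRNAs differed between them. Libraries from uncoated cultures, and WT CSPG library E, were not used here.

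The ribosome is built from a small subunit, which reads the mRNA, and a large subunit, which forms the peptide bond and carries a flexible stalk of P proteins that recruits translation factors. Most of its proteins are needed in equal number in each ribosome, and their mRNAs begin with a run of pyrimidines, the 5′ terminal oligopyrimidine (TOP) motif, through which mTOR signalling sets how much of each mRNA is translated. mRNA levels do not measure that step. In the mouse genome the ribosomal protein genes have left many processed pseudogenes, copies of the spliced mRNA inserted elsewhere, and short reads from gene and copy can be hard to tell apart.

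The pair of sequences on which the clearest result turned was that of Rps3a1 and its copy Rps3a3. Rps3a1 encodes a protein of the small subunit and lies on the minus strand of chromosome 3 (mm10, chr3:86137940-86142702). Rps3a3 is a single-exon processed pseudogene on the plus strand (mm10, chr13:108670603-108671397), inside an intron of Pde4d and overlapping none of its annotated exons. Its 795 bases aligned to bases 134 to 928 of the 977-base Rps3a1 mRNA, from the start codon to the stop codon, with 0 gap bases and 9 mismatches (98.9% identity). Counted from the A of the Rps3a1 start codon, with the base of Rps3a1 first, they were T216C, T260C, C363T, A427T, T534C, G582T, A660G, C762T and G792A. The stretches below hold 4 of the 9, in positions 198 to 277 and 518 to 597, and are shown because within the aligned part only such bases separate the reads of gene and copy; reads that reach into the ends of the Rps3a1 mRNA outside it separate them too. Capitals mark the bases that differ.
Rps3a1, 198 to 277: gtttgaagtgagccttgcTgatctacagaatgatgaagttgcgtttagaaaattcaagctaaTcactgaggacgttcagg
Rps3a3, 198 to 277: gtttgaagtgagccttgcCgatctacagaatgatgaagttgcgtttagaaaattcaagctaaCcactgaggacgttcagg
Rps3a1, 518 to 597: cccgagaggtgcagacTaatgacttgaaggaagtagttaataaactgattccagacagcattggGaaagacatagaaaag
Rps3a3, 518 to 597: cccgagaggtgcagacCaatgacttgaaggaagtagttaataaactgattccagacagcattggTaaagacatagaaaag

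Of the 746 windows of 50 bases in the Rps3a3 transcript, the length of a read in this study, 370 were also in the Rps3a1 mRNA and 376 differed from it by at least 1 base. Other copies share them too, so that 260 windows of Rps3a3 and 269 of the 928 windows of Rps3a1 were in no other annotated transcript. Most similar to Rps3a1 was Rps3a2, a processed pseudogene that has no row in the table, with 4 mismatches over 792 bases.

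The table gives normalised read counts, that is, reads per gene scaled by a factor for each library. Reads over the 12012 genes ranged from 10099564 to 11174615 in WT CSPG and from 10541445 to 11647202 in KO CSPG, and the ribosomal protein rows held 50892 to 58826 of them per library. Fibcd1 itself had 54.3 to 182 normalised reads in WT CSPG and 0.932 to 7.16 in KO CSPG. All 4 Y-linked genes on the list were lower in KO CSPG (Ddx3y by a log2 fold change of -0.85), and Xist was higher (0.67), and the sex of the embryos is not given for single libraries, so sex and genotype cannot be told apart. Of the cell type markers, all 10 neuronal genes were in the table and 0 changed (limma; 3 at an unadjusted p under 0.05), and of 7 oligodendrocyte lineage genes 2 rose (Olig2 by 0.79 and Olig1 by 0.59). The summed level of that list was 1038 to 1346 in WT CSPG and 1652 to 1818 in KO CSPG; its part in the results below was not tested. The summed astrocyte list spanned 33500 to 41390 and 39230 to 43990, and the fibroblast and mural list 439.3 to 873.9 and 576.6 to 1367, with 0 genes of either changed (2 and 1 at an unadjusted p under 0.05). Of 4 microglial and 6 proliferation genes that had a row, 0 changed (2 and 0 at an unadjusted p under 0.05). None of the 4 endothelial or 4 erythroid markers had a row.

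Across all genes, 346 of 12012 (2.88%) passed an adjusted p of 0.05 in limma on log2(value + 1) with Benjamini-Hochberg adjustment, 131 higher (1.09%) and 215 lower (1.79%) in KO CSPG. Without pseudogenes and the X and Y chromosomes the count was 327. Of the 66 ribosomal protein rows, 2 rose, among them Rps3a1, and 1 fell (Rps3a3), and the other 63 did not pass. In a bulk culture, fewer cells of a type and less RNA per cell cannot be told apart. Replicates are described as biological in the study's text, but litters and culture days are not given, so the p-values measure the spread between these libraries.

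Rps3a3 was the member with the largest difference. It had 142, 171, 155 and 139.6 normalised reads in WT CSPG A to D, and 0, 0, 0 and 0.948 (a single read) in KO CSPG A to D. The copy was read in every WT CSPG library and all but absent from KO CSPG. Against a floor of 3 reads per KO CSPG library it was at least 52.3-fold lower (limma, adjusted p = 8.8e-15). The lowest mean of any gene analysed was 40.7. Rps3a3 lies above it (mean 76.1) only through WT CSPG, and a copy as low in both groups would have had no row. Its p-value carries that limit. The host gene Pde4d, whose intron holds the copy, had 560 ± 39.5 normalised reads in WT CSPG and 573 ± 12.3 in KO CSPG (SD, n = 4; log2 fold change 0.04, adjusted p = 0.81 in limma). Pde4d was looked up after the value of Rps3a3 was seen.

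Rps3a1 had 369, 340, 342 and 325 normalised reads in WT CSPG A to D and 443, 448, 439 and 421 in KO CSPG A to D. Every KO CSPG library was above every WT CSPG library. The group means were 344 ± 18.2 and 438 ± 11.7 (SD, n = 4), a log2 fold change of 0.35 (SE 0.06, adjusted p = 0.0006 in limma). With the summed Y-linked level as a covariate the fold change was 0.40 (SE 0.20) and the call was lost (adjusted p = 0.74 in limma), while that of Rps3a3 was not. Genotype explained 91.2% of that covariate, and only 2 of 12012 genes were called with it. The lost call is therefore not particular to Rps3a1. Gene and copy summed to 464.7 to 511.1 in WT CSPG (mean 496.1 ± 21.9) and to 421.9 to 447.6 in KO CSPG (437.8 ± 11.2). The sum was lower in every KO CSPG library while Rps3a1 alone was higher. These 2 rows share sequence and are not independent. Whether the counting assigned reads that match both was not given in the sources used here, and how far reads moved between the rows was not tested.

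**Figure D1:**
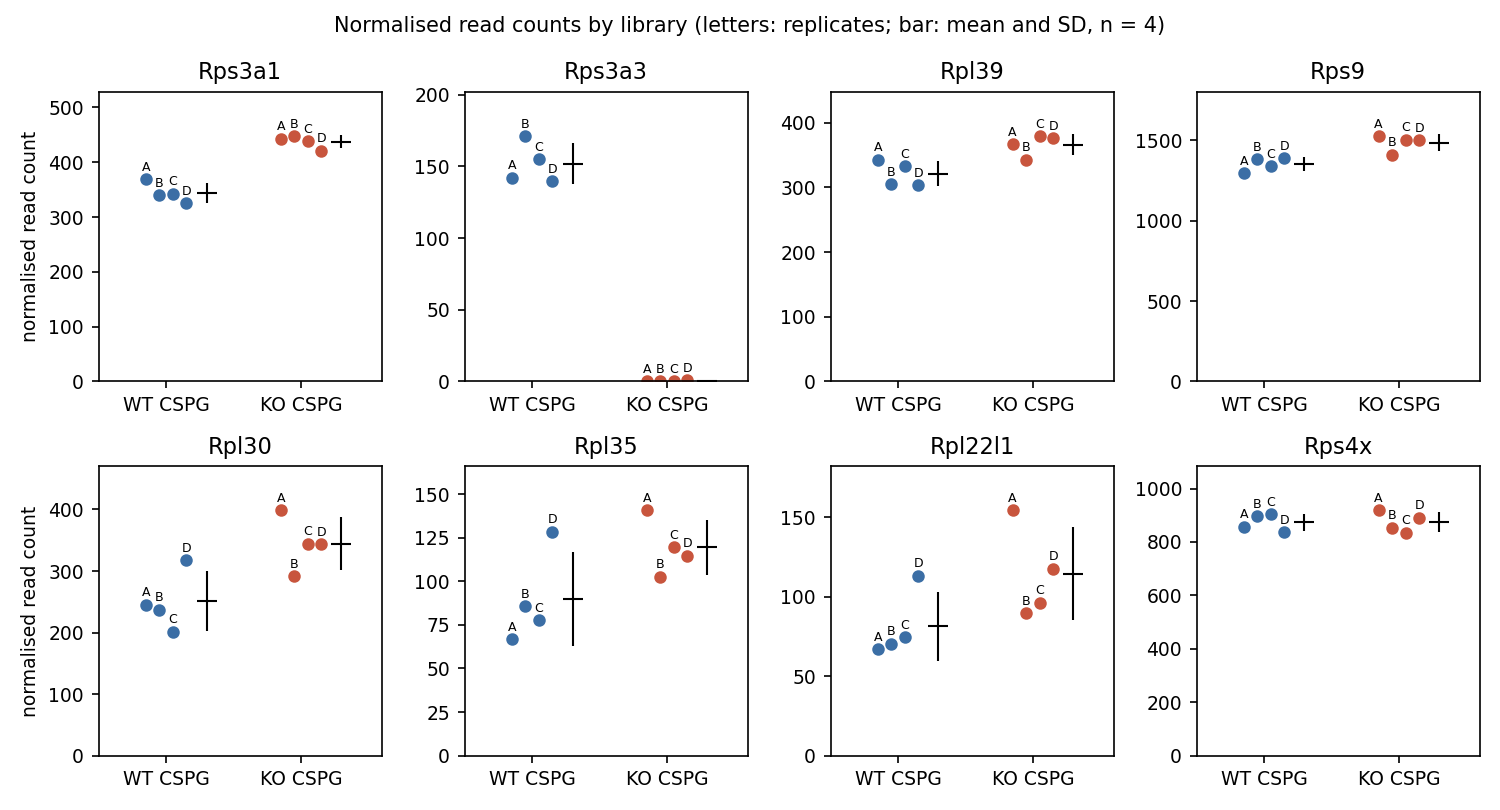
Normalised read counts (y axes, from 0) of 8 ribosomal protein genes in the 4 WT CSPG (blue) and 4 KO CSPG (red) libraries, with replicate letters and the mean and SD of each group. Rps3a3 is at 139.6 to 171 in WT CSPG and at 0 to 0.948 in KO CSPG, Rps3a1 is higher in every KO CSPG library, and in Rpl30, Rpl35 and Rpl22l1 replicate D of WT CSPG overlaps the KO CSPG libraries.

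The other copies that had a row did not follow Rps3a3. Rpl14-ps1 (mm10, chr7:45324965-45325617) lies in an intron of Trpm4 on the other strand and differs from the mRNA of Rpl14, a large subunit gene, by 4 mismatches and 3 gap bases over 653 aligned bases. Its means in WT CSPG and KO CSPG were 114 ± 10.4 and 126 ± 10.2 normalised reads, and those of Rpl14 were 676 ± 24.6 and 653 ± 20.5 (SD, n = 4). Neither passed (adjusted p = 0.53 and 0.66 in limma). Rps4l (mm10, chr6:148354656-148355598), a transcribed pseudogene inside Tmtc1, is the most diverged, with 157 mismatches over 783 bases of the Rps4x mRNA (79.9% identity) and 82% of its windows in no other transcript. It had 319, 280.5, 344 and 302 normalised reads in WT CSPG A to D and 334, 284, 307 and 304 in KO CSPG A to D, and the groups overlapped.

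Rps9, a small subunit protein encoded on chromosome 7, just missed the threshold. It had 1297, 1384, 1337 and 1389 normalised reads in WT CSPG A to D and 1525, 1409.8, 1503 and 1501 in KO CSPG A to D, a log2 fold change of 0.14 (SE 0.04, adjusted p = 0.051 in limma), and the groups did not overlap. It passed with only genes of a mean of at least 100, with upper-quartile scaling and with size factors computed without the ribosomal protein genes. It also passed without WT CSPG D and without KO CSPG B. Under every other setting of the fit Rps9 did not pass.

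Among the protein-coding members, the fold changes were small and leaned upwards. The median log2 fold change was 0.07 over the 63, beside 0.00 over all genes, and 47 of all 66 rows (71.2%) were above 0 against 50.1% of all genes. At an unadjusted p under 0.05, 14 rows were higher (7.51% of all genes) and 3 lower (8.67% of all genes). All 4 KO CSPG libraries were above all 4 WT CSPG libraries in 5 rows, among them Rps3a1, Rps9, Rps20 and Rpl39 (4.05% of all genes), and below them in 2, Rps3a3 and Rps18 (5.17% of all genes). By subunit, the medians were 0.08 over 38 large subunit genes, 0.05 over 21 small subunit genes and 0.17 over the 3 stalk genes Rplp0, Rplp1 and Rplp2.

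**Figure D2:**
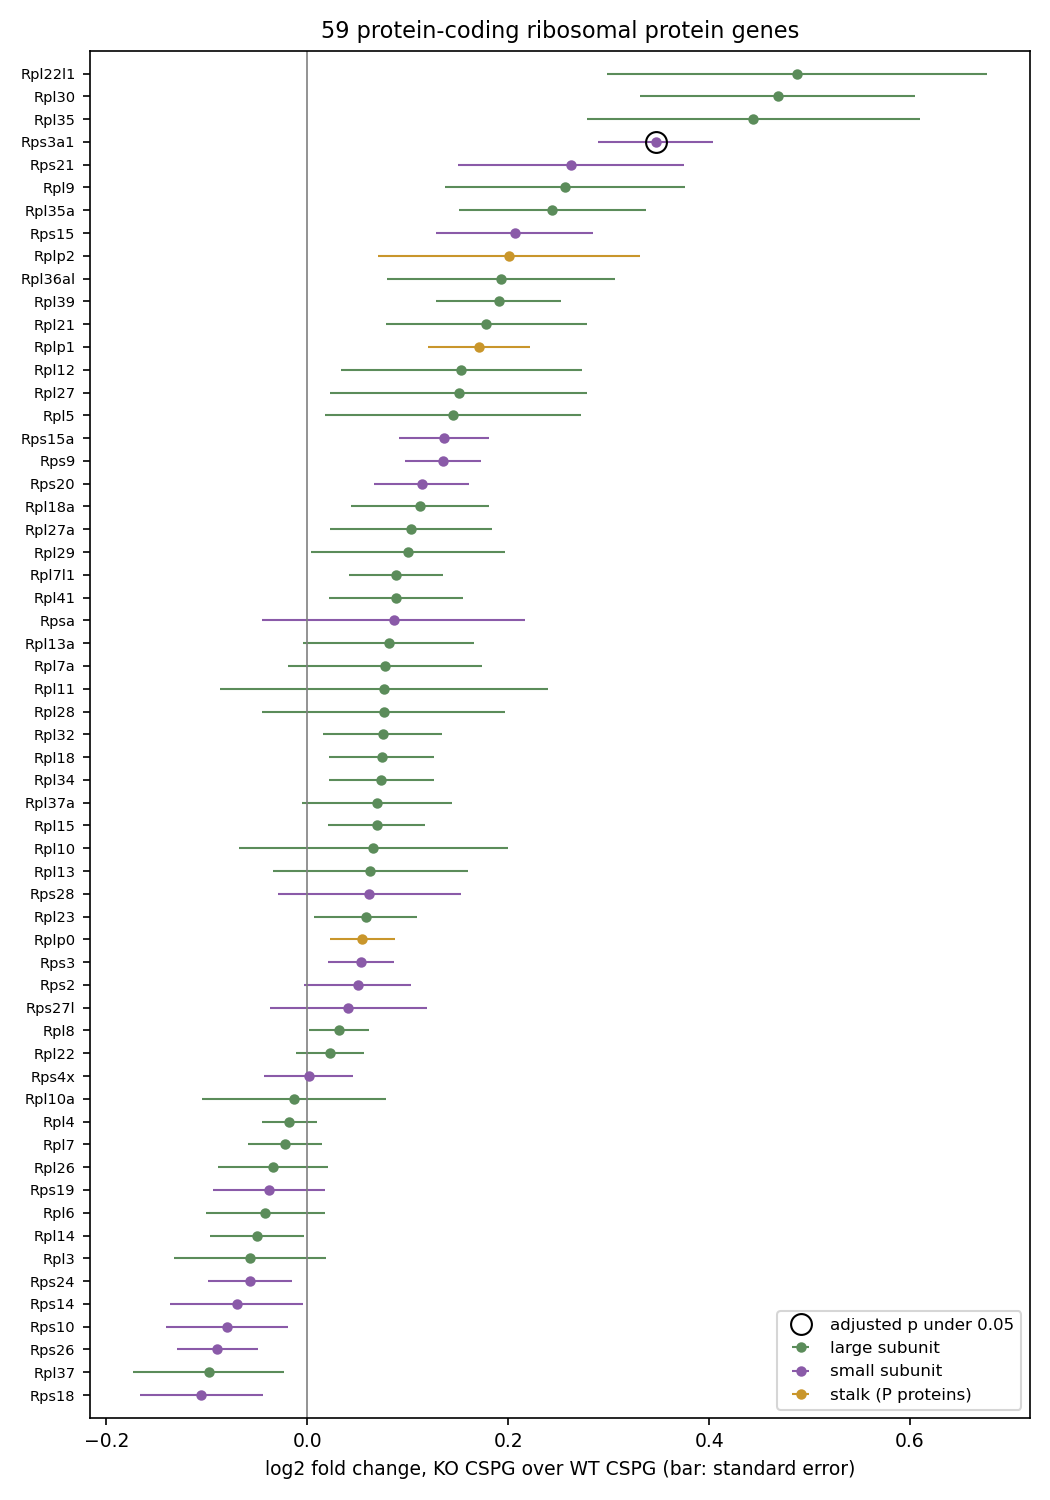
Log2 fold changes between genotypes (x axis, KO CSPG relative to WT CSPG) with the standard error (bars) for 59 of the ribosomal protein genes, ordered by fold change and coloured by subunit. A ring marks Rps3a1, which passed an adjusted p of 0.05, and 45 of the 59 lie above 0.

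The share of all values held by the 66 rows was 0.489%, 0.506%, 0.510% and 0.513% in WT CSPG A to D and 0.529%, 0.502%, 0.543% and 0.513% in KO CSPG A to D. The groups overlapped, with KO CSPG B below 3 of the WT CSPG libraries. The means were 0.505% ± 0.011 and 0.522% ± 0.018 (SD, n = 4), a difference of 0.017 percentage points.

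Length of the mRNA moved with this lean. The members are short, with a median mRNA of 772 bases against 2996 over all genes. Among 721 other genes with an mRNA of at most 1000 bases, the median log2 fold change was 0.04 and 65.7% were above 0; among 11204 longer genes these were -0.002 and 48.9%. After the trend of each library with mRNA length was taken out, the median of the protein-coding members was 0.04 and 42 of 66 rows were above 0. The median over all genes was then 0.0004. In that fit 2 members were called higher and 1 lower, Rps3a1 and Rps3a3 among them. Over all 12012 genes it called 172 higher and 222 lower.

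The protein-coding members with the highest fold changes were Rpl22l1 (0.49), Rpl30 (0.47), Rpl35 (0.44), Rps3a1 (0.35) and Rps21 (0.26). Apart from Rps3a1 these did not pass. Rpl30, a large subunit protein, had 246, 237, 202 and 318 normalised reads in WT CSPG A to D and 399, 292, 345 and 343 in KO CSPG A to D (adjusted p = 0.12 in limma). Rpl35, of the large subunit, had 66.9, 85.6, 77.6 and 128 in WT CSPG and 141, 103, 119.6 and 115 in KO CSPG. Rpl22l1, the paralogue of Rpl22, had 66.9, 70.4, 74.7 and 113 in WT CSPG and 154, 89.5, 96.1 and 118 in KO CSPG. In all 3, WT CSPG D stood among the KO CSPG libraries and KO CSPG A was highest.

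Rpl30, Rpl35, Rpl22l1, Rpl35a, Rps15 and Rps21 varied together, a group chosen after its values were seen and given without a test. Over the 8 libraries, which share their size factors, the 15 pairwise correlations had a median of 0.90 (0.59 to 0.99), and 0.82 on the deviations from the group means; over all pairs of protein-coding members the medians were 0.19 and 0.18. Their median deviation was -0.28, -0.20, -0.29 and 0.14 (log2) in WT CSPG A to D and 0.38, -0.04, 0.23 and 0.19 in KO CSPG A to D. Without WT CSPG D, 11 members were called higher (among them Rpl22l1, Rpl30, Rpl35, Rpl35a, Rplp1, Rps3a1, Rps9, Rps15, Rps15a and Rps21). In that fit 576 of 12012 genes were called in all, 286 of them higher. WT CSPG D had the highest median deviation of the group among the WT CSPG libraries. Leaving it out therefore raises the fold changes of the grouped genes by construction, and their calls in that fit do not test the group. Leaving out any other single library gave 1 to 4 members higher.

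**Figure D3:**
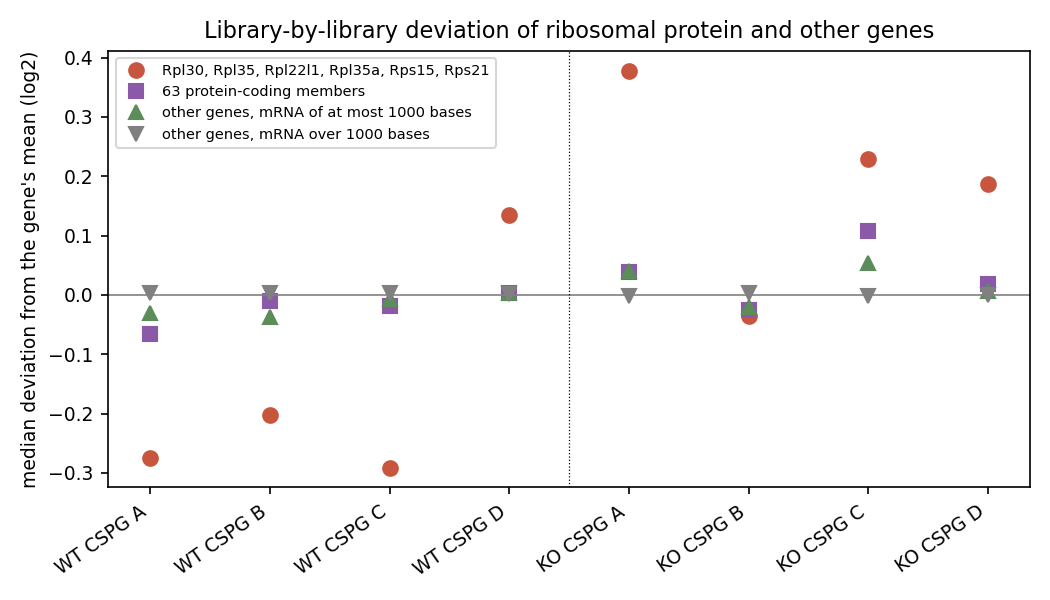
Median deviation from the mean of each gene over the 8 libraries (y axis, log2) by library (x axis) for the 6 members that varied together, all 63 protein-coding members, and other genes with short or long mRNAs. The 6 members span -0.29 to 0.38 with WT CSPG D at 0.14, while long mRNAs stay within 0.004 of 0.

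The start sites of these genes are shown because the TOP motif sits there. RefSeq promoters (GRCm38.p6) matched 48 of the 65 rows other than Rps19bp1, among them Rps3a1 and all of the 6 but Rpl30. Each line runs from 10 bases before the annotated start to the 20th base of the transcript, and capitals mark the pyrimidine-rich letters CTTTC. Where a gene has several annotated starts, the line with these letters or else the first is shown. These RefSeq starts can differ from the gene coordinates that came with the counts. By those coordinates Rps15 starts at 80292453, past the end of its line. Rps3a1 (86142702) and Rpl35 (39005624) start upstream of their lines.
Rps3a1, minus strand, chr3:86142649-86142678: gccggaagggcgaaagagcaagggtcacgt
Rpl35, minus strand, chr2:39005112-39005141: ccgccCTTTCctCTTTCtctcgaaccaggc
Rpl22l1, plus strand, chr3:28805498-28805527: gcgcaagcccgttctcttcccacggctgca
Rpl35a, plus strand, chr16:33056472-33056501: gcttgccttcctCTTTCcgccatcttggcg
Rps15, plus strand, chr10:80292421-80292450: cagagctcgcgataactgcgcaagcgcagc
Rps21, plus strand, chr2:180257369-180257398: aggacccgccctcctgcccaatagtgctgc

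On the sense strand within 50 bases of an annotated start, CTTTC was found in 26 of the 48 (54.2%), in 14.6% of the 27025 genes with a RefSeq promoter and in 11.9% of those in the table. On either strand of the whole promoter, which runs from 250 bases before the start to 50 after it, it was found in 85.4% and 60.6%. Of the lines shown, Rpl35 and Rpl35a hold these letters. CTTTC is a fixed string, so a pyrimidine run spelled otherwise is not counted, and its absence does not show that a TOP motif is lacking. The Rpl22l1 line holds such a run, ttctcttccc.

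Towards the other end of the order were Rps18 (log2 fold change -0.11), Rpl37 (-0.10), Rps26 (-0.09) and Rps10 (-0.08), of which 0 passed (adjusted p between 0.27 and 0.58 in limma). Rps18, a small subunit protein, had 353, 329, 331 and 332 normalised reads in WT CSPG and 324, 301, 328 and 298 in KO CSPG. The groups did not overlap, and the gap was about 1 normalised read.

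Per kilobase of the length given in the table, Rpl8 (4432 normalised reads per kb), Rplp1 (4120), Rpl4 (3614), Rps26 (2352) and Rps15 (2168) had the highest levels, and Rpl11 (16.7), Rpl5 (17.97) and Rpl12 (24.4) the lowest. Most ribosomal proteins are needed in equal number, yet their mRNAs were read at levels far apart on this scale. Part of that spread lies in the length used, which is not that of the mRNA. It was 2697 bases for Rpl11, whose mRNA has 833, and 447 for Rps26, whose mRNA has 681. The share of the mRNA that is unique moved with the mean normalised read count, a level not taken per kilobase. Of the 62 ribosomal protein genes, 36 had under 50% of their 50-base windows in no other annotated transcript, with a median of 46.4% against 100% over all genes. Rpl35 had 4.91%, Rpl5 6.16%, Rps10 7.57% and Rpl10 7.87%, while Rps3, of the small subunit, had 97.04%. Rps10 had a mean of 435 normalised reads despite its low share. The median level was 720 normalised reads for the 26 genes with 50% or more and 324 for the 36 below it (Spearman's rho 0.52 over 62 genes, which share libraries). The fold change did not follow it, with medians of 0.06 and 0.08 and a rho of -0.06. In the annotation the name rule finds 92 protein-coding genes and 301 pseudogenes. Of these, 29 and 298 have no row and were not analysed here, among them Rps27 (1.35% unique), Rps12 (9.89%) and Rps6 (15.4%). Of the 29, 22 had under 50% of their windows unique. Rps16 (58.4%) and Rps29 (64.2%) were above that and have no row either.

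**Figure D4:**
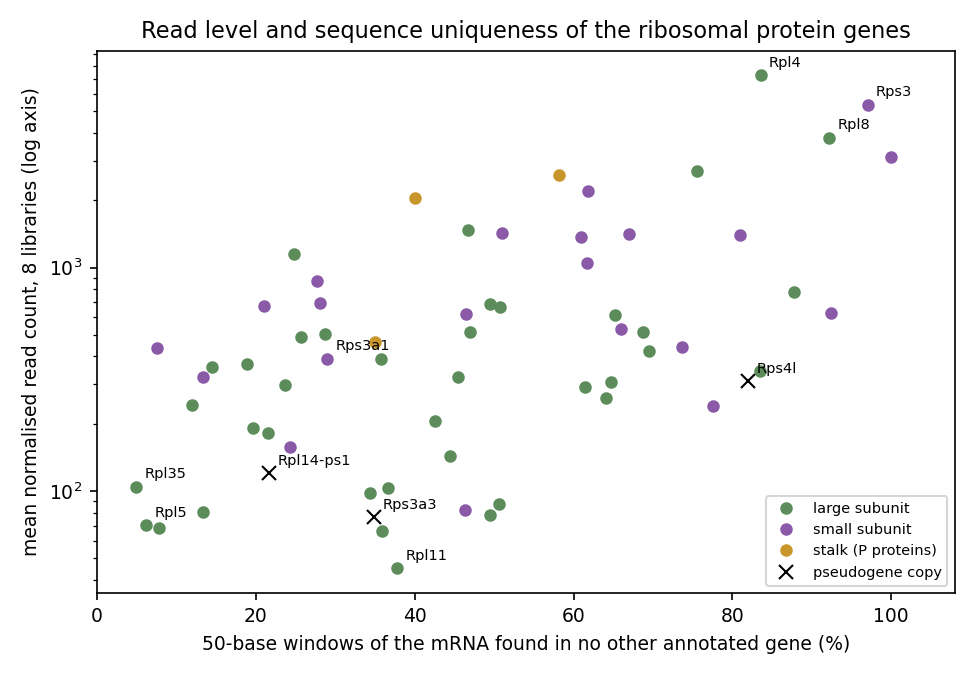
Mean normalised read count over 8 libraries (y axis, log) against the percentage of 50-base windows of the mRNA found in no other annotated gene (x axis) for the 62 ribosomal protein genes and 3 pseudogene copies (crosses). Rpl5 (6.16%) and Rpl35 (4.91%) sit at the lower left, and Rps3 (97.04%) at the upper right.

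The X-linked members were followed because of the Y-linked and Xist values above. Rps4x, an X-linked small subunit gene, had 874 ± 31.7 normalised reads in WT CSPG and 875 ± 37.2 in KO CSPG, Rpl10 had 66.7 ± 6.79 and 70.1 ± 9.86, and Rpl39 had 321 ± 19.6 and 366 ± 16.4 (SD, n = 4). Rpl39, which lines the exit tunnel, had its lowest KO CSPG library (343.1) level with its highest WT CSPG library (342.7) and did not pass (log2 fold change 0.19, adjusted p = 0.10 in limma). The paralogues Rpl7l1, Rpl36al and Rps27l, the last a known p53 target, had log2 fold changes of 0.09, 0.19 and 0.04 and did not pass either.

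Of the other genes of translation in the lists below, 4 passed the threshold, 1 higher and 3 lower. Over all genes 2.88% passed, 1.09% higher and 1.79% lower. Of 19 translation factors and other genes with TOP mRNAs, all in the table, 0 passed and the median log2 fold change was -0.01. Of 32 other initiation factors and 75 mitochondrial ribosomal proteins 0 passed in limma, with medians of -0.01 and 0.04. Rack1, a small subunit protein outside the name rule, had a log2 fold change of 0.03. Of 64 ribosome biogenesis genes 1 rose, Nop16, a nucleolar protein (379 ± 20.1 and 444 ± 19.0 normalised reads, log2 fold change 0.23), and the median was -0.01. Of 20 mTOR and TOP regulators 1 fell, Larp1, which binds TOP mRNAs (2432 ± 43.4 and 2234 ± 30.4, -0.12), and the median was -0.02. Of 17 p53 pathway and nucleolar stress genes 2 fell, Sesn2, an inhibitor of mTOR complex 1 (426 ± 65.3 and 330 ± 19.3, -0.36), and Plk2, a kinase (2391 ± 63.1 and 2192 ± 77.3, -0.13). The median of that list was -0.10.

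At an unadjusted p under 0.05, which 7.51% of all genes met as higher and 8.67% as lower, the counts by list were these. The TOP mRNA list had 0 genes. The other initiation factors had 2 higher and 4 lower, and the mitochondrial ribosomal proteins 5 higher and 0 lower. Of the ribosome biogenesis genes 1 was higher and 8 of 64 lower, and in 8 of 64 every KO CSPG library was below every WT CSPG library (5.17% of all genes). The mTOR and TOP regulators had 1 higher and 2 lower. Of the p53 pathway and nucleolar stress genes 1 was higher and 7 of 17 lower, and in 3 of 17 every KO CSPG library was below every WT CSPG library.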

How the data were processed

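Poly-A RNA was sequenced by the authors as single 50-base reads from 18 libraries; the table used here has columns for 8 (WT CSPG and KO CSPG, A to D), matched by name, and 0 columns were left unused. The authors deposited a normalised signal, reads per gene divided by a DESeq2 size factor, on mm10; the aligner and the counting program are not given in the sources used here. Within a library the values were whole multiples of 1 step (within 5.5e-11 reads). The lowest mean was 40.7. The authors' own fold changes and p-values for KO CSPG against WT CSPG were not used. The deposited gene length column is of another kind and served for levels per kb.

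Values were fitted as log2(value + 1) with limma 3.58.1 in R 4.3.3 (trend, robust), adjusted over all 12012 genes. A log2 fold change is on that scale. On simulated data for this comparison over 12012 genes, 83 of 100 genes changed by 0.5 and 100 of 100 changed by 1 were recovered, with 11 of 11812 unchanged genes called. Each gene was drawn independently of the others. Changes smaller than 0.5, the size of those of the protein-coding members, were not simulated, so recovery at that size was not tested. The 50-base windows were compared, on both strands, over the GENCODE M21 transcripts, which held 11991 of the genes. Libraries of a group differed by a chi-square of 1.83 to 2.90 per degree of freedom, so none repeated another. Floors cover counting error only.

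The members and lists were chosen with earlier results of these data known. Genes named are the members called, those with the 5 highest and 5 lowest fold changes, the 5 highest and 3 lowest levels per kb, the X-linked members, paralogues and copies with their genes, genes called in the other lists, and Fibcd1; Rpl22, Rpl35a, Rplp0, Rplp2, Rps3, Rps9, Rps15a, Rps20, Rps19bp1, Rack1, the genes with no row, the host genes Pde4d, Trpm4 and Tmtc1, Ndn, and the members named only for a library far from the others (Rpl10a, Rpl21, Rpl26, Rpl27a, Rpl28 and Rpsa) fall outside this rule and were picked once values were known. Some genes that meet the rule are not reported here.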

Additional observations from a re-analysis of the deposited data

Results flagged for a closer look

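In 11 of 134 groups of 4 libraries, 1 library lay far from the other 3, with a gap to the nearest of them above Dixon's 95% critical value; chance flags about 1 group in 20. In WT CSPG, Rpl22l1 was 113.1 in replicate D (66.9 to 74.7 in the others), Rpl21 111.8 in A, Rpl27a 211.4 in C, Rps26 1139 in C, Rpsa 95.3 in B, Rpl36al 80.5 in C, Rpl10a 206.8 in B and Rps18 353.2 in A. In KO CSPG, Rpl28 was 68.3 in D, Rpl26 546.9 in C and Rps3a3 0.948 in D, the last being 1 read where the others had 0. Values are normalised read counts.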

How the results depend on the processing

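Rps3a1 and Rps3a3 were called under each leave-one-out fit, where the counts spanned 186 to 576 genes in all, 1 to 11 members higher, 1 to 1 lower and 0 to 6 other translation genes; the median of the protein-coding members spanned 0.0517 to 0.0795 and the difference in share 0.0102 to 0.0238 percentage points. Without the trend of the prior variance, 80 genes, 1 member higher and 0 other translation genes were called. With the summed Y-linked level as a covariate, of which genotype explained 91.2%, 2 genes were called (Rps3a3 and Ndn), 0 members higher and 0 other translation genes, and Rps3a1 had a log2 fold change of 0.40 (SE 0.196) with an adjusted p of 0.737; Rpl10 (-0.32), Rpl14-ps1 (-0.0387), Rpl36al (-0.16), Rpl4 (0.000231), Rps18 (0.0728), Rps26 (4.5e-05) and Rps4l (0.46) changed sign, none of them called. A mean value of at least 100, or requiring 10 in each of the libraries, left 0 members lower because Rps3a3 was then not tested. With the length trend removed, an alternative chosen after seeing the data, Rpl8 (-0.000696), Rps27l (-0.00814) and Rps4x (-0.0267) changed sign. On leaving out a library, the range crossed 0 for Rpl10 (-0.0178 to 0.133), Rpl11 (-0.0307 to 0.136), Rps27l (-0.019 to 0.0857), Rps4l (-0.0656 to 0.0326) and Rps4x (-0.0224 to 0.0231). The causes were not tested beyond this. Upper-quartile scaling moved the split from 131 higher and 215 lower to 182 and 178. The replicate letters did not clearly pair the libraries (correlations of -0.0737, 0.0956, 0.275 and -0.00508 for A to D). Each WT CSPG library matched its own letter best for B and C, and not for A and D. With the replicate block 429 genes and 3 members higher were called (Rpl30 added, adjusted p = 0.0183 in limma), and without the robust prior Rpl30 was also added. The planned edgeR and DESeq2 fits to the reads recovered from the values were not run. The table starts at a mean of 40.7, so copies read at lower levels were not covered.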
